A study of Homo sapiens with 6 samples.

Results

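The 40 genes described here encode the machinery that copies DNA and the regulators that switch it on at the passage from G1 into S phase. They were taken by name from the deposited table, in which each of the 40 names had a single row among 60612 genes, and all 40 passed the filter on low counts that left 18863 genes for testing. The table comes from PANC-1 cells, a human line established from a pancreatic carcinoma and grown here with serum. The treated group is 3 poly(A) RNA libraries of cells given 50 µM D(+)-raffinose pentahydrate, a plant trisaccharide in its hydrated form, for 24 h. The untreated group is 3 libraries of PANC-1 cells for which the labels name no compound, vehicle or time. The series title names proliferation as part of what the comparison addresses. Whether libraries of the same group were separate cultures is not stated, so p-values cover only the library-to-library spread, which may be technical.

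Total counts per library ranged from 59723420 to 66063664. Mitochondrial genes took 9.35 to 9.66% of counts in the raffinose libraries and 8.47 to 9.54% in the untreated ones, and the part of this difference in the results below was not tested. The 7 genes listed for the identity of the line summed to 1666 to 1840 FPKM in untreated and 1364 to 1418 FPKM in raffinose libraries. KRT8, KRT18 and VIM were high, at 393, 521 and 821 FPKM in untreated cells (FPKM, a level scaled to transcript length and library size). With raffinose these 3 genes were at 275, 389 and 723 FPKM. The epithelial markers KRT19 and EPCAM were near absent at 0.119 and 0.166 FPKM in untreated cells. CDKN2A, at 0.0122 FPKM, and CDKN2B, without counts in untreated cells, did not pass the filter on low counts. The sum over the list is thus almost entirely KRT8, KRT18 and VIM. Fibroblast markers summed to 3.35 to 3.75 FPKM in untreated and 3.97 to 4.38 FPKM in raffinose libraries, with COL1A1 as the single marker of 6 at or above 1 FPKM. Leukocyte markers summed to 12.3 to 15.9 FPKM without and 6.96 to 9.29 FPKM with raffinose, with CD68 as the single marker of 5 at or above 1 FPKM, while CD3E had no counts in any library. Endothelial markers stayed at or below 0.117 FPKM in sum, and the 4 acinar markers had no counts. The part of these marker differences in the results was not tested.

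As background, replication origins are licensed in G1 when the origin recognition complex, CDC6 and CDT1 load the ring-shaped MCM2-7 helicase onto DNA. At the start of S phase CDC45 and the GINS complex join MCM2-7 and turn it into the active helicase, after which DNA polymerases copy the opened strands behind the sliding clamp PCNA. Many of these genes are transcribed under the control of E2F factors, which cyclin E and its kinase release from the retinoblastoma protein, and their messages are therefore used as a sign of S-phase entry.

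Messenger RNA of 5 of the 6 subunits of the MCM2-7 helicase was lower in every raffinose library than in any untreated library, with differences of -9.14% for MCM4 to -22.1% for MCM5; this order of the libraries was found for 10.9% of all tested genes. The activating E2F factors E2F1 and E2F2, the repressor E2F8, the phosphatase CDC25A, the helicase cofactor CDC45, the ligase LIG1 and the polymerase subunits POLA1 and POLD1 were ordered in the same way. No gene of the 40 was higher in every raffinose library. By edgeR with Benjamini-Hochberg adjustment over all tested genes, however, 0 of the 40 passed in either direction, where 0.122% of all tested genes did, and each of these differences is therefore given as a value. In bulk RNA, fewer cells in S phase and less of these messages per cell cannot be told apart.

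Across the table edgeR called 0.0371% of the 18863 tested genes higher and 0.0848% lower. Among the 40 genes 10 had an unadjusted p under 0.05, all lower with raffinose, a share of 25.0%. Over all tested genes 7.08% were lower by that measure, 6.21% higher and 13.3% either. Groups that did not overlap, lower with raffinose, were found for 13 of 40 genes, or 32.5%, against 10.9% of all tested genes; in the opposite direction there were 0 against 10.6%, and 21.5% of all tested genes did not overlap in either direction. Among the 9813 tested genes at least as abundant as CCNE2, the least abundant of the 40, an unadjusted p under 0.05 was reached by 10.4% in the lower and 6.51% in the higher direction, groups did not overlap for 14.9% in the lower and 10.7% in the higher direction, and 53.5% were negative. The median log2 fold change of the 40 was -0.10, beside 0.0059 for all tested genes, and 32 of them were negative, or 80.0%, where 49.0% of all tested genes were. DESeq2 gave an adjusted p to 14441 genes, of which it called 2.83% lower and 1.76% higher. Of the 40 genes it called 0 higher and 3 lower. Those were MCM5 (adjusted p = 0.00118), MCM7 (adjusted p = 0.0140) and E2F2 (adjusted p = 0.0446).

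On the deposited FPKM values, which are scaled without the TMM factors, 9 of the 40 genes were lower without overlap rather than 13, and MCM4, CDC45, POLA1 and POLD1 were the ones that overlapped. Of all tested genes 8.98% were lower and 13.5% higher without overlap on that scale, and 0 of the 40 were higher. The 95% intervals of the fold changes were narrow enough to exclude a 2-fold change in either direction for 39 of the 40 genes, and a 1.5-fold change for 38. The exceptions were RRM2 for both sizes and UHRF1 for the smaller size.

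**Figure D1:**
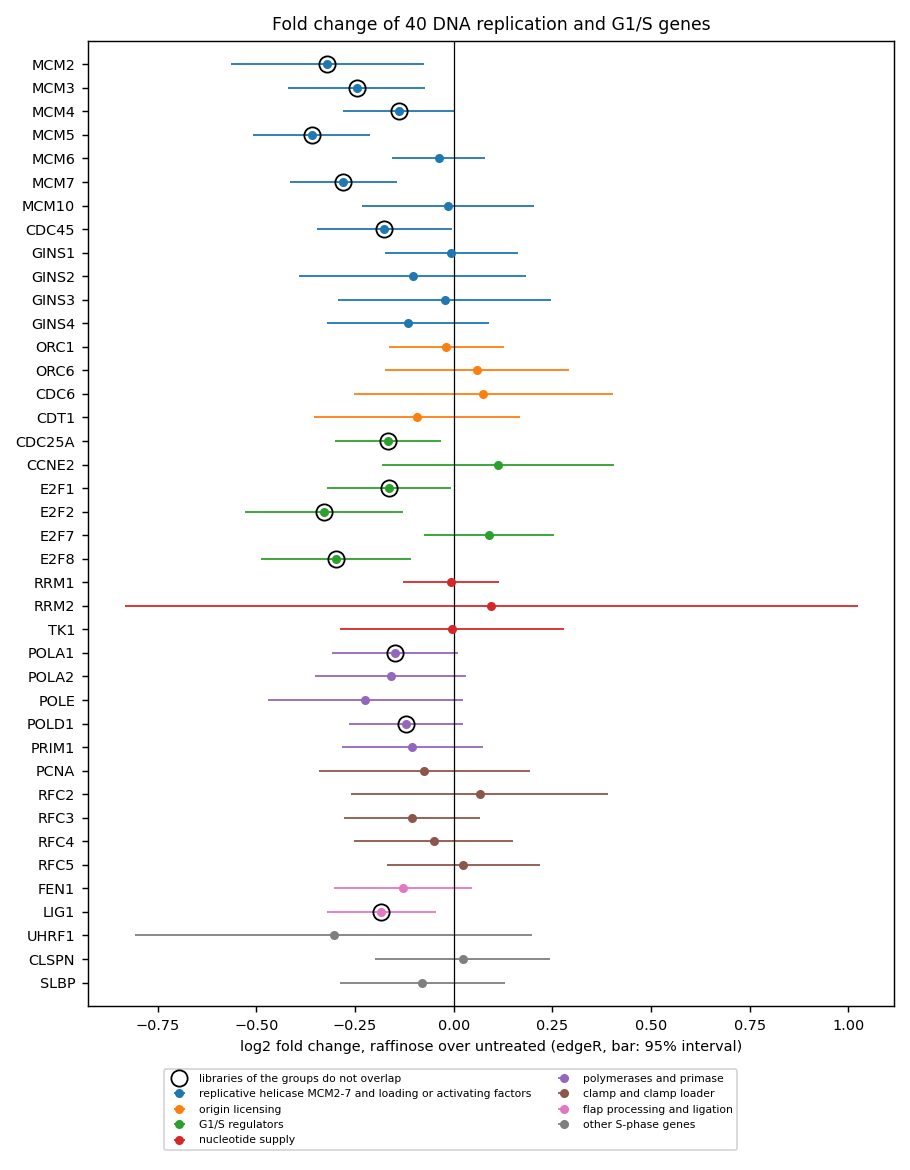
Log2 fold change of each of the 40 genes, raffinose over untreated, on the horizontal axis, with the gene on the vertical axis. Colours mark roles and bars mark the 95% interval derived from the edgeR fit. Black rings mark the 13 genes whose raffinose libraries all lie below the untreated ones; no point is ringed on the right of 0, and the widest bar is that of RRM2.

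The MCM2-7 ring unwinds DNA ahead of the replication fork, each subunit being present in a single copy per ring. MCM5, which sits at the gate through which the ring opens around DNA together with MCM2, was at 154, 143 and 149.6 CPM (counts scaled to library size with TMM factors) in untreated replicates 1, 2 and 3. In raffinose replicates 1, 2 and 3 the level was 116, 121 and 111 CPM. All raffinose libraries lay below all untreated ones, giving a log2 fold change of -0.36 with an SE of 0.062 and a 95% interval of -0.51 to -0.21 (adjusted p = 0.121), the smallest adjusted p of the 40 genes.

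MCM7 was at 361, 336 and 343 CPM in the untreated and 286, 298 and 273 CPM in the raffinose libraries, again with no overlap, and had a log2 fold change of -0.28 (adjusted p = 0.151, SE 0.057). MCM2, the other gate subunit, was at 127, 164 and 135 CPM in untreated and 112, 118 and 111 CPM in raffinose libraries. Its groups did not overlap either, but untreated replicate 2 was well above the other untreated libraries, and the log2 fold change was -0.32 (adjusted p = 0.275, SE 0.10), or -0.21 without that library. MCM3 was at 248, 215 and 217 CPM and 187, 199 and 188 CPM (the untreated libraries first, as in all such pairs), with untreated replicate 1 the highest of the 6 libraries and a log2 fold change of -0.25 (adjusted p = 0.251, SE 0.072).

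MCM4 and MCM6 form the core helicase of the ring together with MCM7. MCM4 was at 210.2, 208 and 214 CPM in the untreated and 186, 185 and 204 CPM in the raffinose libraries, lower in every raffinose library, with a log2 fold change of -0.14 (adjusted p = 0.381, SE 0.059). MCM6 showed a similar level in all 6 libraries. It was at 135, 137 and 133 CPM in the untreated and 134, 131 and 129.8 CPM in the raffinose libraries, with groups that overlapped and a 95% interval of the log2 fold change of -0.16 to 0.08. Whether the fold change of MCM6 differs from those of the other subunits was not tested. The sum of the 6 subunits was 211, 211 and 207 FPKM in untreated replicates 1, 2 and 3 and 182, 185 and 183 FPKM in raffinose replicates 1, 2 and 3. All 6 log2 fold changes were negative in the main fit and in each of 15 alternatives.

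**Figure D2:**
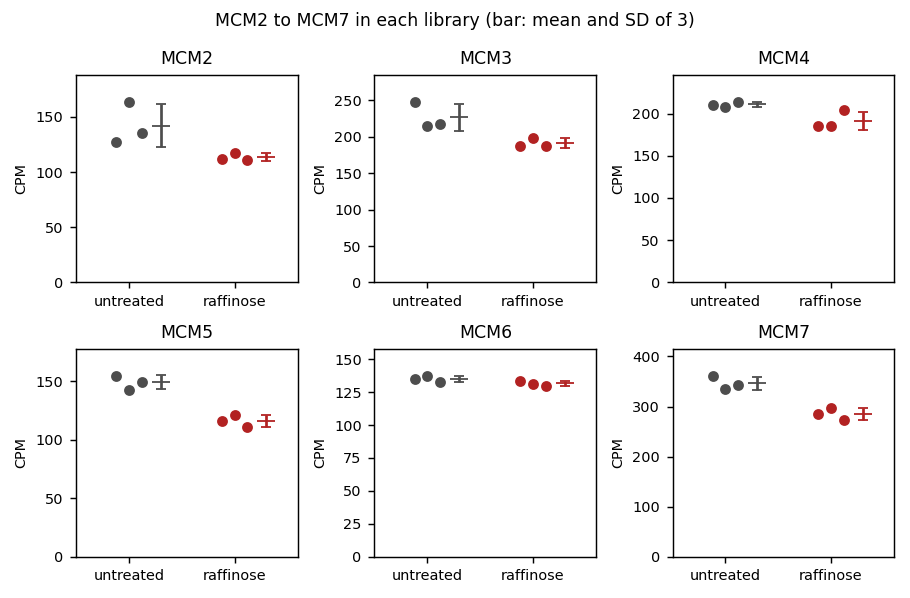
CPM of MCM2 to MCM7 on vertical axes from 0, with 3 points per group for the untreated (grey) and raffinose (red) libraries and the mean with its SD beside them. In 5 panels all red points lie below all grey points; for MCM6 the points lie between 129.8 and 137 CPM and overlap.

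In the deposited table the 6 MCM2-7 genes lie on separate chromosomes. MCM2 (ENSG00000073111) is at chromosome 3, 127598410 to 127622436, plus strand, MCM3 (ENSG00000112118) at chromosome 6, 52264014 to 52284881, minus strand, and MCM4 (ENSG00000104738) at chromosome 8, 47960185 to 47978160, plus strand. MCM5 (ENSG00000100297) is at chromosome 22, 35400134 to 35424501, plus strand, MCM6 (ENSG00000076003) at chromosome 2, 135839626 to 135876443, minus strand, and MCM7 (ENSG00000166508) at chromosome 7, 100092728 to 100101940, minus strand. All 40 are protein-coding genes in GENCODE 29, on 17 chromosomes, and 39 have both ends within 2000 bases of their GENCODE 29 position; RRM2 is the exception and is described with its values.

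Because many of these genes are known E2F targets, their promoters were searched for the letters of E2F sites. The windows of RefSeq promoters (GRCh38.p14) hold 250 bases before and 50 after a gene's start, and 35 of the 40 genes had at least 1. The others are MCM4, MCM5, GINS4, E2F8 and CCNE2. The words TTTCGCGC, TTTGGCGC, TTTCCCGC and TTTGCCGC were searched on both strands; a word on the plus strand can overlap a word on the minus strand, as in MCM2 and MCM6. At least 1 word was present in 20 of the 35 genes, or 57.1%, where 3.99% of the 27305 genes in the promoter table and 6.50% of the 11593 tested here had it. CCAAT, the letters bound by NF-Y, was present on either strand in 23 of 35, or 65.7%, where 39.7% of all genes in the promoter table had it. Of the 20 genes with an E2F word 8 were lower without overlap and the median log2 fold change was -0.15; of the 15 without it 2 were, with a median of -0.015. MCM4, MCM5, GINS4, E2F8 and CCNE2, without a window, are in neither group of genes. Of these MCM4, MCM5 and E2F8 were lower without overlap, while GINS4 and CCNE2 overlapped. Absence of these exact words from a window does not show that E2F factors do not control the gene. The groups of genes were formed after the values were known, and the difference between them was not tested.

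For 4 helicase subunits and for E2F1 and E2F2, the 220 bases around the start, 200 before it and 20 after, are printed on the gene's own strand. They were chosen to set MCM6, whose groups overlapped, beside 3 of the 5 subunits that were lower, and beside the factors that bind such words. Capitals mark the E2F words. The windows are chr3:127598211-127598430 (plus strand) for MCM2, chr6:52284723-52284942 (minus) for MCM3, chr2:135876424-135876643 (minus) for MCM6, chr7:100101378-100101597 (minus) for MCM7, chr20:33686366-33686585 (minus) for E2F1 and chr1:23531214-23531433 (minus) for E2F2.
MCM2: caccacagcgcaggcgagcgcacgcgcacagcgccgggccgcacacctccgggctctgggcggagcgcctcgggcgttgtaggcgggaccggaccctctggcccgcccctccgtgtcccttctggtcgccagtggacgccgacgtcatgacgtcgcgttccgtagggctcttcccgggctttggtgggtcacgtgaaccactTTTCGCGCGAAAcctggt
MCM3: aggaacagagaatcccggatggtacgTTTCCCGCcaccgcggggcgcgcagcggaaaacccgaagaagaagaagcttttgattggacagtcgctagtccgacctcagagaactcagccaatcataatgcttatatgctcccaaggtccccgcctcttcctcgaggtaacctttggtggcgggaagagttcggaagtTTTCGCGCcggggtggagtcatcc
MCM6: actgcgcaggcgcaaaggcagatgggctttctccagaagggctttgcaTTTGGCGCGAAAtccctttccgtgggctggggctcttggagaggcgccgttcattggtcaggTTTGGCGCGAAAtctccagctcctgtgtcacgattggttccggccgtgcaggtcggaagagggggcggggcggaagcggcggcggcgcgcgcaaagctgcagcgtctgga
MCM7: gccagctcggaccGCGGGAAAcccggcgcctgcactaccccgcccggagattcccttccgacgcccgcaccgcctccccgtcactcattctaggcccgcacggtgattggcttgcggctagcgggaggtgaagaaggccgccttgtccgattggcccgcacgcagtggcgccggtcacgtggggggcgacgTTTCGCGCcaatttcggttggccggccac
E2F1: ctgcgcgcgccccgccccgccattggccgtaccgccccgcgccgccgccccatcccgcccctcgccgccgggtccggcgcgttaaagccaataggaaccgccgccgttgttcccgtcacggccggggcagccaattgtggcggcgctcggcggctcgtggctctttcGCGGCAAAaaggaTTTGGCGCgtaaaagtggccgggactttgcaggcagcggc
E2F2: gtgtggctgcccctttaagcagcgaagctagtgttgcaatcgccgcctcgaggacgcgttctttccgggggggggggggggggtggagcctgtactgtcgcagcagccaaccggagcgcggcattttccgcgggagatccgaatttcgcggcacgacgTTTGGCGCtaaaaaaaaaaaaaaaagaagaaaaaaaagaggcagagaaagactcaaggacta
MCM6 held 4 matches at 2 places, because at each place a word on the plus strand overlaps a word on the minus strand. MCM3, MCM7 and E2F1 each held 2 matches at 2 separate places. MCM2 held 2 overlapping matches at a single place, and E2F2 held a single match. Counted by place, MCM6 thus had as many as MCM3, MCM7 and E2F1 and more than MCM2 and E2F2. A match is a run of letters and does not show that a factor binds there.

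CDC45 and the 4 GINS subunits complete the active helicase, and MCM10 helps to start it. CDC45 was lower in every raffinose library, at 36.8 ± 1.67 CPM with raffinose against 41.6 ± 1.69 CPM untreated (SD, n = 3 per group), with a log2 fold change of -0.18 (adjusted p = 0.366, SE 0.071). MCM10, GINS1, GINS2, GINS3 and GINS4 overlapped between groups. Their log2 fold changes ran from -0.12 for GINS4 to -0.0068 for GINS1, and their adjusted p from 0.622 to 0.983. By edgeR all 12 helicase genes were negative, but MCM10, GINS1 and GINS3 turned positive on log2(FPKM + 1). The summed GINS level was 33.2, 35.2 and 33.4 FPKM in untreated and 34.3, 33.3 and 32.4 FPKM in raffinose replicates 1, 2 and 3, and so overlapped where the summed MCM2-7 level did not.

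The licensing factors that load the helicase did not share its order of libraries. CDC6, the loading ATPase, was at 93.9, 73.7 and 73.4 CPM in the untreated and 88.2, 72.2 and 93.3 CPM in the raffinose libraries. CDT1, which brings MCM2-7 to the origin, was at 43.1, 34.9 and 36.6 CPM and 32.5, 37.8 and 37.2 CPM. Libraries of a group differed more from each other than the group means did for both genes. Log2 fold changes were 0.075 (95% interval -0.25 to 0.40) for CDC6 and -0.093 (-0.35 to 0.17) for CDT1.

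ORC1, the largest subunit of the origin recognition complex, was at 52.8 ± 1.27 CPM in the untreated and 52.1 ± 1.76 CPM in the raffinose libraries. ORC6, its smallest subunit, was at 36.4, 31.0 and 34.9 CPM in untreated and 39.0, 33.8 and 33.8 CPM in raffinose libraries, with overlapping groups. All 4 licensing genes overlapped between groups, 2 were higher on average and 2 lower, and their adjusted p ran from 0.766 to 0.925.

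Among the G1/S regulators the activator E2F2 had the smallest p. It was at 38.8, 33.4 and 36.7 CPM in untreated and 27.8, 28.7 and 30.3 CPM in raffinose libraries, all of the latter lower, with a log2 fold change of -0.33 (adjusted p = 0.204, SE 0.084). E2F8, an atypical E2F that represses E2F targets in S phase, was at 23.1, 25.7 and 24.6 CPM and 20.6, 19.5 and 19.5 CPM, again without overlap, with a log2 fold change of -0.30 (adjusted p = 0.215, SE 0.079). E2F7, its closest relative and also a repressor, had the opposite sign, at 39.6 ± 1.63 CPM with raffinose against 37.3 ± 1.32 CPM untreated and with a log2 fold change of 0.088, and its groups overlapped.

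E2F1 was at 66.8, 66.9 and 67.1 CPM in the untreated libraries, the tightest group of any of the 40 genes, and at 60.7, 62.8 and 55.7 CPM in the raffinose libraries. All raffinose libraries were lower, with a log2 fold change of -0.16 (adjusted p = 0.363, SE 0.066). CDC25A, the phosphatase that removes inhibitory phosphates from CDK2, was lower without overlap at 61.4 ± 1.18 CPM with raffinose against 68.9 ± 1.76 CPM untreated, with a log2 fold change of -0.17 (adjusted p = 0.298). CCNE2, a cyclin E, was at 10.4, 11.2 and 8.84 CPM and 11.1, 11.5 and 10.2 CPM. It was the least abundant of the 40, its groups overlapped, and its log2 fold change of 0.11 (95% interval -0.18 to 0.41) was 0.023 without untreated replicate 3 and 0.19 without untreated replicate 2.

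The 5 polymerase and primase genes among the 40 were all negative, with log2 fold changes from -0.22 for POLE to -0.10 for PRIM1, and 2 of the 5 did not overlap. POLA1, the catalytic subunit of the polymerase that makes the primers with PRIM1, was at 35.6, 37.7 and 38.6 CPM in the untreated and 33.3, 33.3 and 34.2 CPM in the raffinose libraries. The catalytic subunit of the leading-strand polymerase, POLE, was at 109, 142 and 132 CPM and 109, 107 and 112 CPM; untreated replicate 1 lay among the raffinose libraries. Adjusted p was 0.400 for POLA1 and 0.415 for POLE, whose log2 fold change was -0.14 without untreated replicate 2.

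POLD1, the catalytic subunit of the lagging-strand polymerase, was lower in every raffinose library, at 57.6 ± 1.87 CPM with raffinose against 62.6 ± 1.85 CPM untreated (adjusted p = 0.453). POLA2 and PRIM1, partners of POLA1, overlapped between groups, with log2 fold changes of -0.16 and -0.10. The 95% interval of POLA2 was -0.35 to 0.032 and that of PRIM1 -0.28 to 0.074.

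The clamp PCNA holds polymerases on DNA, and the loader made of RFC1 to RFC5 opens it. PCNA was at 268, 237 and 238 CPM in untreated and 252, 255 and 198 CPM in raffinose libraries. Raffinose replicate 3 was lower than the rest, the other raffinose libraries lay within the untreated range, and the log2 fold change of -0.074 (95% interval -0.34 to 0.19) became 0.034 without that library. RFC3 was at 59.4, 61.5 and 56.9 CPM in the untreated and 55.4, 51.5 and 58.3 CPM in the raffinose libraries. RFC2, RFC4 and RFC5 also overlapped, with log2 fold changes of 0.066, -0.051 and 0.024, so that none of the 5 clamp genes separated the groups.

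LIG1 and FEN1 finish the lagging strand by trimming the flaps of its fragments and joining them. LIG1, the ligase, was at 80.3, 87.1 and 83.4 CPM in the untreated and 72.7, 73.8 and 74.2 CPM in the raffinose libraries. All raffinose libraries were lower and lay close together, with a log2 fold change of -0.18 (adjusted p = 0.274, SE 0.058). FEN1, the flap nuclease, was at 129.8, 117 and 118 CPM and 111, 118 and 105 CPM. Raffinose replicate 2 was above the lowest untreated library, and the log2 fold change was -0.13 (adjusted p = 0.509, SE 0.072), or -0.080 without untreated replicate 1.

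The groups overlapped for RRM1, RRM2 and TK1, the genes of nucleotide supply among the 40. RRM1, the large subunit of ribonucleotide reductase, was at 312, 293 and 311 CPM in the untreated and 297, 309 and 306 CPM in the raffinose libraries, with a log2 fold change of -0.007 and a 95% interval of -0.13 to 0.11. TK1, the salvage enzyme that phosphorylates thymidine, was at 87.3, 76.8 and 77.4 CPM and 79.1, 92.7 and 69.0 CPM, with the highest and the lowest value both in raffinose libraries.

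RRM2, the small subunit whose level rises in S phase, was unlike its partner. Untreated replicates 1, 2 and 3 had 187, 178 and 366 CPM, and raffinose replicates 1, 2 and 3 had 192, 392 and 197 CPM. Untreated replicate 3 and raffinose replicate 2 were far above the other 4 libraries, which lay close together in both groups. The log2 fold change of 0.095 (95% interval -0.83 to 1.02) rested on those libraries: it was -0.33 without raffinose replicate 2 and 0.51 without untreated replicate 3. In the table the RRM2 row spans 89900 bases, from 10120698 to 10210597 on chromosome 2, where GENCODE 29 gives 10722 bases with the same start, and it holds 19 transcripts; the part of this in the jump was not tested. No other of the 40 genes jumped in this way at a mean of at least 100 CPM: a ratio of highest to lowest library of at least 1.8 in both groups was met by 1 of the 13 at that level, and by 36 of 1990 tested genes, or 1.81%.

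UHRF1, which brings the maintenance DNA methyltransferase to newly copied DNA, also varied widely, at 90.4, 141 and 115 CPM in the untreated and 118, 80.0 and 83.0 CPM in the raffinose libraries. Untreated replicate 2 was the highest and raffinose replicate 2 the lowest, and the groups overlapped. SLBP, which binds the stem-loop of histone messages, was at 102, 99.8 and 108 CPM and 109, 89.8 and 94.7 CPM with overlapping groups. CLSPN, the adaptor of the replication checkpoint kinase, had a log2 fold change of 0.023 at 75.5 ± 7.13 and 76.7 ± 5.26 CPM. Apart from RRM2 and UHRF1, the coefficient of variation between libraries of a group stayed under 20% for each gene, with a median over the 40 genes of 5.93% in untreated and 5.77% in raffinose libraries.

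**Figure D3:**
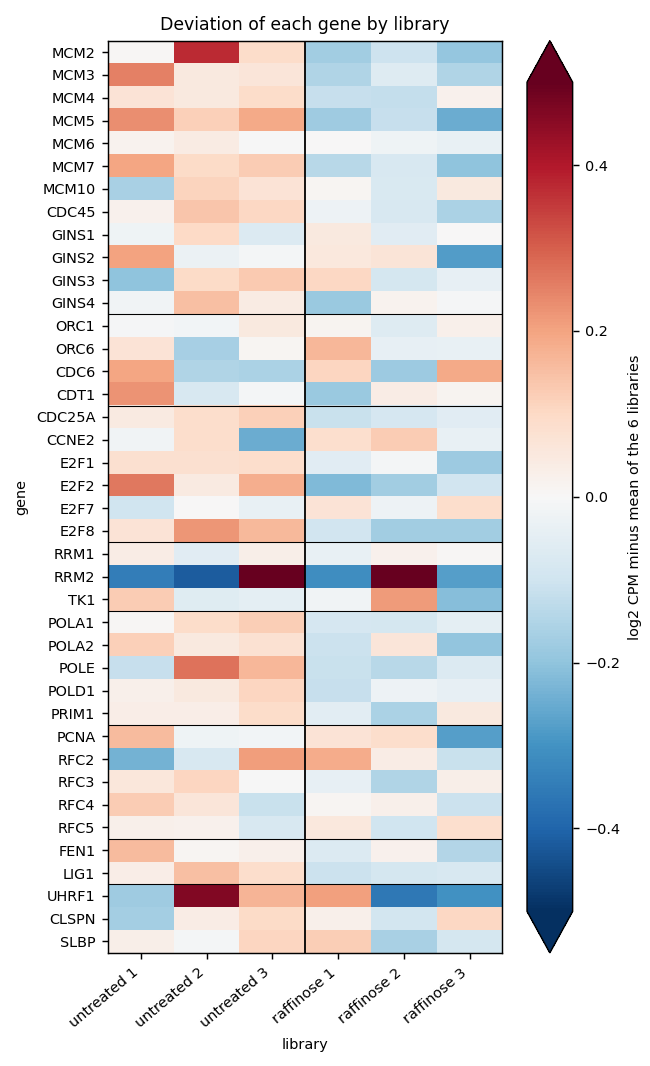
Log2 CPM of each gene in each library minus the gene's mean over the 6 libraries, untreated on the left and raffinose on the right, with genes on the vertical axis divided by role; colours are limited to 0.5 in either direction. The helicase genes MCM2, MCM3, MCM5 and MCM7 are at or above their mean (white to red) on the left and below it (blue) on the right, whereas RRM2 is strongly red in 1 library of each group.

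Counted over genes, the highest of the 6 libraries was an untreated one for 32 of the 40 genes (12, 11 and 9 in replicates 1, 2 and 3) and a raffinose one for 8 (2, 3 and 3). The lowest was a raffinose library for 29 genes and an untreated one for 11. No single library thus held the highest or the lowest value of more than 12 of the 40 genes, while the split between the groups was uneven. The same shares over all tested genes were not computed.

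Levels per transcript length spread widely over the 40 genes. In untreated cells PCNA was highest at 145 ± 7.57 FPKM (SD, n = 3), followed by MCM7 at 65.0 ± 1.23 and RRM1 at 59.4 ± 1.56 FPKM, and CCNE2 was lowest at 1.89 ± 0.228 FPKM. Within the helicase ring MCM7 was above MCM3 (51.1 ± 3.19 FPKM), which was above MCM6 (26.9 ± 0.722 FPKM). MCM4 (24.9 ± 0.567 FPKM) and MCM2 (24.8 ± 3.76 FPKM) overlapped each other, and MCM5 (16.9 ± 0.413 FPKM) was below both in every untreated library. The highest subunit was 3.86-fold above the lowest in untreated and 4.08-fold in raffinose libraries, although the ring holds equal numbers of each. By CPM, which is not scaled to length, MCM5 (149 ± 5.92) was instead above MCM6 (135 ± 2.12) in untreated cells. The rows hold 10 transcripts for MCM5, 24 for MCM4 and 3 for MCM6. The part of this in these and the following FPKM orders was not tested.

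Among GINS subunits GINS1 and GINS2 overlapped at 11.4 ± 0.811 and 11.3 ± 0.810 FPKM, and GINS3 was lowest at 4.64 ± 0.639 FPKM. The loader subunits RFC3, RFC2 and RFC4 overlapped along the order at 17.1 ± 0.776, 16.4 ± 2.82 and 15.1 ± 1.13 FPKM, and RFC5 lay below them at 7.71 ± 0.303 FPKM. Of the 4 E2F genes among the 40, E2F1 was highest at 20.5 ± 0.398 FPKM; E2F2 (5.47 ± 0.324 FPKM) was next, and E2F7 and E2F8 could not be separated at 4.87 ± 0.259 and 4.87 ± 0.343 FPKM.

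**Figure D4:**
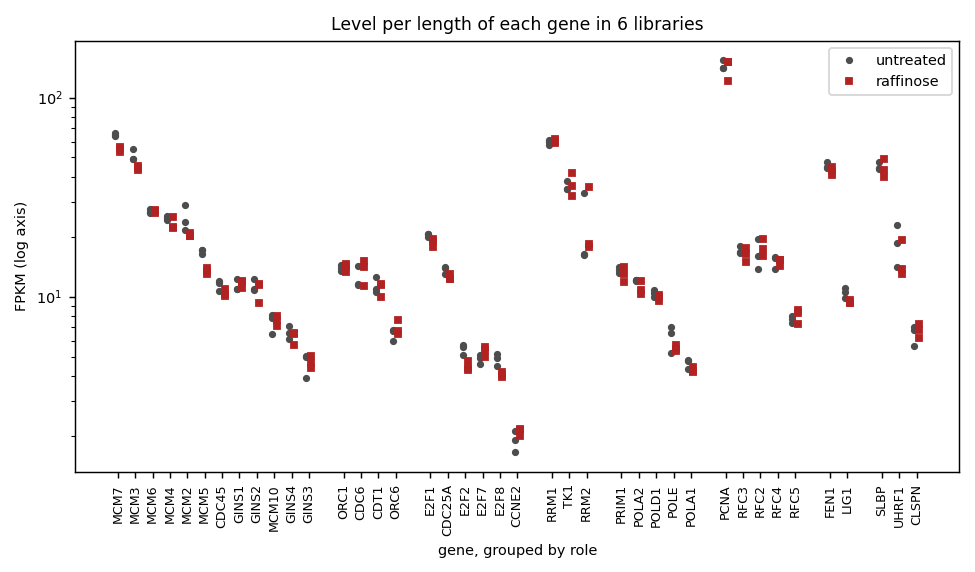
FPKM on a log axis of each gene in the 3 untreated (grey circles) and 3 raffinose libraries (red squares), with genes on the horizontal axis grouped by role and sorted by untreated level. PCNA stands at the top and CCNE2 at the bottom, and the red squares of MCM2, MCM3, MCM5 and MCM7 lie under the grey circles.

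A further 58 genes of replication and G1/S control, listed with earlier results of these data known, were of mixed sign. Of them 34 were positive and 24 negative, with a median log2 fold change of 0.014. By edgeR 0 passed as higher and 1 as lower, the latter in 11 of the 15 alternatives. It was lost without raffinose replicate 2, untreated replicate 1 or untreated replicate 3, and with the replicate number as a block. At an unadjusted p under 0.05 there were 5 higher and 2 lower, where 6.21% and 7.08% of all tested genes were. DESeq2 called 2 higher and 1 lower. Groups did not overlap for 9 higher and 3 lower genes of the 58, beside 10.6% and 10.9% of all tested genes. Among the 8 further polymerase, primase and loader subunits 5 were positive and 3 negative, and groups did not overlap for 2 higher and 1 lower.

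TFDP2, a dimerization partner of E2F factors, was at 16.5, 18.9 and 19.0 CPM in the untreated and 23.2, 24.4 and 24.5 CPM in the raffinose libraries, higher in every raffinose library (log2 fold change 0.41, SE 0.088, adjusted p = 0.169). RRM2B, the p53-inducible alternative to RRM2, was at 45.9, 47.2 and 39.5 CPM and 59.9, 55.7 and 54.5 CPM, also higher in every raffinose library (0.36, SE 0.089, adjusted p = 0.199). DESeq2 called both. MTBP, which acts in origin firing, was at 9.36, 9.24 and 8.01 CPM and 11.0, 11.0 and 11.5 CPM, higher without overlap (adjusted p = 0.279).

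POLD2, an accessory subunit of the polymerase of POLD1, was at 135, 118 and 118 CPM in the untreated and 99.2, 98.8 and 106 CPM in the raffinose libraries, lower in every raffinose library (log2 fold change -0.29, SE 0.076, adjusted p = 0.215). CCNE1, the more abundant cyclin E here by FPKM (12.9 against 1.89 in untreated cells), was at 37.5, 39.0 and 39.7 CPM and 37.8, 35.5 and 32.8 CPM with overlapping groups. CDKN1A, an inhibitor of the kinases that start S phase, was at 83.0, 67.1 and 74.6 CPM and 81.9, 95.1 and 84.1 CPM, with overlapping groups (log2 fold change 0.22, 95% interval -0.025 to 0.46). TYMS, which makes thymidylate, was at 380.1, 340.3 and 389.8 CPM and 362, 363 and 408 CPM, again overlapping (95% interval -0.16 to 0.21).

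Some of the values can hold reads of a neighbour. For neighbours on the opposite strand this is because the use of strand in counting is not stated. Reads of neighbours on the same strand could not be separated by strand in any case. PRIM1 overlaps NACA by 333 bases on the same strand, and NACA is far more abundant, at 445 CPM. FEN1 overlaps FADS2 by 4259 bases on the same strand, and FADS2 was at 33.0 CPM. CCNE2 overlaps INTS8 (54.6 CPM) and NDUFAF6 (11.9 CPM) on the opposite strand, both more abundant than CCNE2 itself. POLA1, lower in every raffinose library, overlaps EEF1B2P3 by 678 bases on the opposite strand, at 30.4 CPM beside 35.4 CPM for POLA1. EEF1B2P3 had a log2 fold change of -0.12, and its part in the POLA1 value was not tested. MCM7 overlaps AP4M1 by 392 bases on the opposite strand, at 15.6 CPM beside 316 CPM for MCM7, and AP4M1 had a log2 fold change of -0.097. These neighbour levels are means over the 6 libraries, and none of these neighbours passed by edgeR.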

How the data were processed

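Polyadenylated PANC-1 RNA went into strand-marked (dUTP) paired-end libraries, per the labels' protocols. StringTie 1.3.4d, HISAT2 2.0.4 and cutadapt 1.9, with DESeq2 and edgeR, are listed in the submitters' processing notes with no role for any. Neither build nor annotation is stated there. The authors deposited an FPKM value and an estimated count per gene and library, per the file headers. A gene without reads is listed at 0.0001 FPKM. The deposited estimated counts are whole numbers in which a count of 4 (1382 genes in raffinose replicate 1) is far more frequent than 3 (456) or 5 (286), so what 1 count stands for is uncertain.

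Counts were rounded and tested with edgeR 4.0.16 in R 4.3.3 (filterByExpr with a minimum count of 10, TMM scaling, glmQLFit and glmQLFTest, Benjamini-Hochberg adjustment over 18863 genes, threshold 0.05), with 3 libraries per group. Fold changes are log2 of raffinose over untreated, and CPM uses TMM-scaled library sizes. SEs were back-calculated as the absolute log2 fold change divided by the square root of the quasi-likelihood F statistic. The 95% intervals add and subtract the SE times the t quantile at the total degrees of freedom, and are thus approximate. The fits were tested on data simulated for the 18863 genes with the spread estimated here. Of genes changed 1.5-fold edgeR recovered 3 of 50 and DESeq2 11 of 48. At 2-fold they recovered 15 of 50 and 27 of 47. False calls among unchanged genes numbered 4 for edgeR and 67 for DESeq2. Absence of an edgeR call therefore says little about changes of 1.5-fold or less. Alternatives were no filter, a filter at FPKM 1, DESeq2 1.42.0, DESeq2 size factors, upper-quartile scaling, limma 3.58.1 on log2(FPKM + 1) and log2(FPKM + 0.1), counts divided by 4, the replicate number as a block, and each library left out.

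The 40 genes and the lists were chosen with earlier results of these data known. The design named all 40. Values per library were given for MCM2 to MCM7, PCNA, CDC6, CDT1, CCNE2, E2F1, RRM2, TK1, SLBP and UHRF1 and for up to 2 genes of the smallest p in each role. Of the 58 others, called genes, the 4 of smallest p, CCNE1, CDKN1A and TYMS were to be named; a gene that this rule takes is not reported here. The remaining genes named, including those near the 40, were chosen after their values were seen. Promoter letters came from RefSeq windows of GRCh38.p14, and GENCODE 29 was used only to compare gene spans.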

Additional observations from a re-analysis of the deposited data

How the results depend on the processing

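All 40 genes were tested under each of the 15 alternatives, and 0 were called higher in any. The 3 called lower by DESeq2 were the single exception to 0 called lower. The number at an unadjusted p under 0.05 and lower ranged from 6 to 11 over the alternatives, and that of higher genes was 0 throughout. The median log2 fold change was negative in all 15, at -0.089 with a filter at FPKM 1, -0.065 for limma with FPKM + 1, -0.069 for limma with FPKM + 0.1, and -0.14 to -0.095 with each library left out. Between 26 and 32 of the 40 were negative.

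Against 7 genes higher and 16 lower over the table, the counts were 15 and 27 with a filter at FPKM 1, 254 and 409 with DESeq2, 11 higher on log2(FPKM + 0.1), and 11 higher with counts divided by 4. With a library left out, 0 to 15 were higher and 4 to 13 lower; 0 higher came without untreated replicate 3. Of the 58 other genes DESeq2 called 2 higher, and the 1 lower became 0 without raffinose replicate 2, untreated replicate 1 or untreated replicate 3, a range of 0 to 1. The cause of these differences was not tested.

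With the replicate number as a block edgeR made 0 calls in either direction over the table and 0 among the 58; unadjusted p was under 0.05 for 1932 genes. Numbers were not taken as pairs, because the labels do not say that a number marks a shared culture. Deviations of same-numbered libraries correlated at -0.024, -0.079 and 0.020, and for 0 of 6 was the same-numbered partner the closest.

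For 15 of the 40 genes, the sign turned under at least 1 alternative. With a filter at FPKM 1 the log2 fold change was 0.000386 for MCM10, 0.00864 for GINS1, 0.00848 for RRM1 and 0.0106 for TK1. On log2(FPKM + 1) the log2 fold change was 0.0225 for MCM10, 0.0289 for GINS1, 0.0149 for GINS3, 0.0167 for ORC1, 0.0301 for RRM1 and 0.0244 for TK1. On log2(FPKM + 0.1) the log2 fold change was 0.0257 for MCM10, 0.0312 for GINS1, 0.0189 for GINS3, 0.0177 for ORC1, 0.0305 for RRM1 and 0.0249 for TK1. With counts divided by 4 the log2 fold change was 0.000102 for TK1. With each library left out it ran from -0.00205 to 0.20 for CDC6, -0.15 to 0.00162 for CDT1, -0.0531 to 0.0772 for CLSPN, -0.0419 to 0.0432 for GINS1, -0.16 to 0.000551 for GINS2, -0.12 to 0.0381 for GINS3, -0.0952 to 0.0384 for MCM10, -0.0368 to 0.00817 for ORC1, -0.0121 to 0.11 for ORC6, -0.14 to 0.0342 for PCNA, -0.0315 to 0.20 for RFC2, -0.0127 to 0.0785 for RFC5, -0.0358 to 0.0102 for RRM1, -0.33 to 0.51 for RRM2 and -0.12 to 0.0929 for TK1.

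A further 11 of the 40 kept their sign throughout but moved by over 1.5 times with a library left out. They were MCM2 (-0.21 without untreated replicate 2), GINS4 (-0.053 without raffinose replicate 1, -0.067 without untreated replicate 2), CCNE2, POLE and FEN1 (values given with these genes), POLA2 (-0.10 without raffinose replicate 3), PRIM1 (-0.054 without raffinose replicate 2, -0.16 without raffinose replicate 3), RFC3 (-0.060 without raffinose replicate 2), RFC4 (-0.000087 without untreated replicate 1, -0.010 without raffinose replicate 3, -0.12 without untreated replicate 3), UHRF1 (-0.13 without untreated replicate 2, -0.20 without raffinose replicate 2, -0.50 without raffinose replicate 1) and SLBP (-0.022 without raffinose replicate 2, -0.047 without untreated replicate 3, -0.17 without raffinose replicate 1). The other 14 did neither.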

Other observations

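Single libraries also stood apart for 2 G1/S genes outside the 40, chosen here after their values were seen. CDC25B, a phosphatase that activates cyclin-dependent kinases, was at 234, 225 and 364 CPM in untreated and 233, 222 and 360.4 CPM in raffinose replicates 1, 2 and 3, with replicate 3 high in both groups. E2F6, a repressive E2F factor, was at 27.9, 23.2 and 7.81 CPM and 26.5, 9.35 and 22.4 CPM, with untreated replicate 3 and raffinose replicate 2 low, the same libraries in which RRM2 was high. The groups overlapped for both genes, and neither passed by edgeR (adjusted p = 0.991 and 0.994).

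Of 13 origin recognition and firing genes outside the 40, 7 had positive and 6 negative values. ORC4, a subunit of the origin recognition complex, was at 35.5, 31.7 and 32.4 CPM in untreated and 39.7, 37.5 and 39.0 CPM in raffinose libraries, and RFC1, the large subunit of the clamp loader, at 62.2, 68.1 and 69.0 and 73.5, 77.4 and 78.9 CPM. Both were higher in every raffinose library, with adjusted p of 0.297 and 0.288, and were chosen after their values were seen. CDC7, the kinase that phosphorylates MCM2-7 at origin firing, was ordered in the same way, at 36.6, 39.0 and 37.6 and 40.1, 42.2 and 41.3 CPM (adjusted p = 0.462). Over the 13 genes 0 were lower and 4 higher without overlap of the groups, beside 10.9% and 10.6% of all tested genes.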
